A study of Sus scrofa with 12 samples.

Results

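The genes described here are the slow-fibre isoforms of the sarcomere, the contractile unit of striated muscle. They were taken from the gene tables of longissimus dorsi, the loin muscle, by 10 symbols: MYH7, MYH7B, MYL2, MYL3, TNNT1, TNNI1, TNNC1, TPM3, MYOZ2 and CSRP3. Rows were found for 7 of the 10 (MYH7B, MYL2, MYL3, TNNT1, TNNI1, TNNC1 and CSRP3) among 25880 gene rows, and all 7 passed the filter on low counts that left 13373 genes for testing. MYH7, TPM3 and MYOZ2 were not analysed here.

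The samples came from 12 castrated male Iberian pigs of 1 closed commercial population, with 1 RNA-seq library per pig. The High MB group held 6 pigs with the highest estimated breeding values for muscle myoglobin (0.159 to 0.206) and a measured myoglobin content of 2.376 to 2.559 mg/g. The Low MB group held 6 pigs with breeding values of -0.248 to -0.149 and a content of 1.226 to 1.58 mg/g. Every pig was fattened outdoors on acorns and grass, no treatment or transgene was involved, full siblings were avoided, and the labels give no age. The groups were therefore separated by selection on a predicted trait, and each p-value below measures the spread between pigs. Libraries held 38914271 to 91318334 counts assigned to genes, and 5 libraries above 50000000 counts (High MB pigs 4 and 6, Low MB pigs 1, 5 and 6) are called deep here, the other 7 standard. The gene profile of High MB pig 2 stood furthest from the rest (median r with the other pigs of 0.948), followed by Low MB pig 4 (0.962), against 0.967 to 0.975 for the others. The libraries carried the defining markers of the labelled tissue, and skeletal actin ACTA1 lay between 18547 and 73321 CPM (counts scaled to a common library size, with TMM factors) in every pig.

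Mammalian muscle is a mosaic of slow (type I) fibres, which contract slowly, rely on oxidative metabolism and are rich in mitochondria and myoglobin, and of fast (type II) fibres. Most sarcomere proteins exist as a slow and a fast isoform encoded by separate genes, so the balance of their transcripts follows the balance of the fibre types. In pigs, longissimus dorsi is a mainly fast muscle, and its slow fibres lie in clusters. In bulk tissue, fewer cells of a type and less RNA per cell cannot be told apart.

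The members fell into 4 roles. The troponin complex switches the thin filament on and off with calcium, and its slow subunits are TNNC1, which binds calcium and is shared with the heart, TNNI1, the inhibitory subunit, and TNNT1, which anchors the complex to tropomyosin. MYL2 and MYL3 are the regulatory and essential light chains of slow and ventricular myosin. MYH7B is a myosin heavy chain related to MYH7, with a microRNA gene, MIR499, inside its gene. CSRP3, the muscle LIM protein, sits at the Z-disc, where thin filaments are anchored.

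The 250 bases before the annotated start were read for 6 members from the RefSeq genome of Sscrofa11.1, the build the authors aligned to, and 3 of the 6 are shown: those of TNNC1 and TNNT1, whose levels varied together between pigs, and that of MYL3, which held the most kinds of motif. Capitals mark the MCAT box (CATTCC on either strand, the binding motif of TEAD factors) and the CArG box, the motif of serum response factor. The stretches are chr13:34594321-34594570, chr6:59365585-59365834 and chr13:29735617-29735866, all on the minus strand and written 5′ to 3′.
TNNC1: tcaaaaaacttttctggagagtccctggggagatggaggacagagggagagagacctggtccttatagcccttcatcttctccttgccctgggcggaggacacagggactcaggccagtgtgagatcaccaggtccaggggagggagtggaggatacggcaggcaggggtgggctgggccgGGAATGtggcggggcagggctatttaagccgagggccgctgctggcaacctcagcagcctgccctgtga
TNNT1: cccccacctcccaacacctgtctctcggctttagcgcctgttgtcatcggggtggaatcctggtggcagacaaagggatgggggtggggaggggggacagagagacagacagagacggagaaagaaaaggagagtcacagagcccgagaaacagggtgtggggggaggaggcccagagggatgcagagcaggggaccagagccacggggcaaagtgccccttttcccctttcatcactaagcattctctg
MYL3: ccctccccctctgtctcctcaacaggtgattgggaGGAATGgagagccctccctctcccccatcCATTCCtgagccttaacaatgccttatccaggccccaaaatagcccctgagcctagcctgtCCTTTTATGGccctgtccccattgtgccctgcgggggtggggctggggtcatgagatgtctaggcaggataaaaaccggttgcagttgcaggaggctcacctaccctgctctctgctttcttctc
An MCAT box was present in 2 of the 6 member promoters, 69 bases before the start of TNNC1 and 215 and 186 bases before that of MYL3, and in 10.3% of 19556 pig promoters of the same length. The CArG box was found once, 125 bases before the start of MYL3, and in 1.31% of all promoters. The E box (CANNTG, not capitalised), bound by MYOD1 and its relatives, was found in 5 of 6 member promoters and in 61.9% of all. No member window held the TATA box (TATAAA, searched on the strand of the gene) or the MEF2 site, which occurred in 6.15% and 0.470% of all promoters. None of these motif matches overlapped another kind in the 3 stretches shown. They describe these letters only.

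The comparison asked whether slow-fibre isoforms differ between muscle of high and low myoglobin. All 7 measured members had a higher mean in the High MB group, with log2 fold changes of 0.25 to 0.66 and a median of 0.56, where the median over all 13373 genes was -0.02. None of the 7 passed the limits for a differentially expressed gene (in edgeR's quasi-likelihood test, an adjusted p under 0.10 together with a log2 fold change beyond 0.58 in either direction), and neither did any gene of the table (0 of 13373, 0.0%). Of the members only CSRP3 had a log2 fold change beyond 0.58 in edgeR. TNNC1 (0.576) and TNNI1 (0.577) fell just under that limit, so the size limit alone excluded every member but CSRP3. The smallest adjusted p was 0.563, a value that 731 genes shared, TNNC1, TNNI1, TNNT1 and MYL3 among them, and by unadjusted p these 4 members ranked 67, 146, 183 and 373 of the 13373 genes. Without adjustment, 5 of the 7 members were higher at p under 0.05 and 0 were lower, where 5.33% of all genes were higher and 3.13% lower at that limit (8.46% in either direction). A positive log2 fold change was found for 46.9% of all genes. DESeq2 called 29 of 19158 genes (0.151%) and none of the members, of which 6 had an unadjusted p under 0.05 (all genes higher at that limit, 5.18%).

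The members' count depended on which pigs were included. It was 4 without High MB pig 3, High MB pig 5, or Low MB pig 1, 2, 3 or 6, and 6 without High MB pig 2 or High MB pig 6. Shares over all genes are not given for these fits without 1 pig, so their counts have no background beside them. Without both pigs that stood apart the members' count was 7 of 7 (background 5.06%). Within the 7 standard libraries it was 5 of 7 (background 4.86%) and within the 5 deep libraries 0 of 7 (background 2.17%), where only 2 High MB pigs stood against 3 Low MB pigs. With depth class as a covariate the count was 5 (background 6.03%). Scaling by library size alone also gave 5 (background 8.26%), but there the genes with p under 0.05 were 1105 higher and 86 lower (92.8% higher), against 713 and 419 with TMM factors (63.0%). The median of the members exceeded that of all genes by 0.57 in log2 under both scalings.

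Most markers of other cell types that muscle holds were also higher in mean in the High MB group. Macrophage markers were higher in mean in 7 of 7 tested genes, 6 with unadjusted p under 0.05, and their summed level was 61.4 to 127 CPM in the High MB group and 29.4 to 71.2 CPM in the Low MB group. The complement genes C1QA, C1QB and C1QC had log2 fold changes of 0.93, 0.78 and 0.77 (unadjusted p 0.00276, 0.00807 and 0.0119 in edgeR). Fibroblast markers were higher in 7 of 7, 4 with unadjusted p under 0.05, with sums of 646 to 1146 CPM and 340 to 841 CPM, and log2 fold changes of 0.55 for DPT, 0.71 for COL1A2, 0.64 for COL3A1 and 0.35 for DCN. Adipocyte markers were higher in 6 of 6, 2 of them with unadjusted p under 0.05 (FABP4, log2 fold change 1.00, and CIDEC, 0.90; PLIN4, 0.09), with sums of 323 to 624 CPM and 324 to 539 CPM. Endothelial markers were higher in 6 of 6, with sums of 135 to 185 CPM and 83.9 to 197 CPM. Of these, 1 had an unadjusted p under 0.05 (TIE1, log2 fold change 0.55), and EMCN had 0.19, PECAM1 0.27 and CDH5 0.25. Smooth muscle markers were higher in 7 of 9, none with unadjusted p under 0.05, with sums of 247 to 1146 CPM and 277 to 583 CPM. Their log2 fold changes were 0.39 for PDGFRB, 0.60 for TAGLN and 0.32 for RGS5, while CNN1 (-0.12) and LMOD1 (-0.10) were lower. None of these genes passed the adjusted limit, no list had a marker at 0 in every pig, and of 5 tested skeletal muscle fibre markers 1, TNNT1 itself, was higher in mean (ACTA1 -0.24, CKM -0.17, CASQ1 -0.22). The part of these cell types in the slow-isoform result was not tested.

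**Figure D1:**
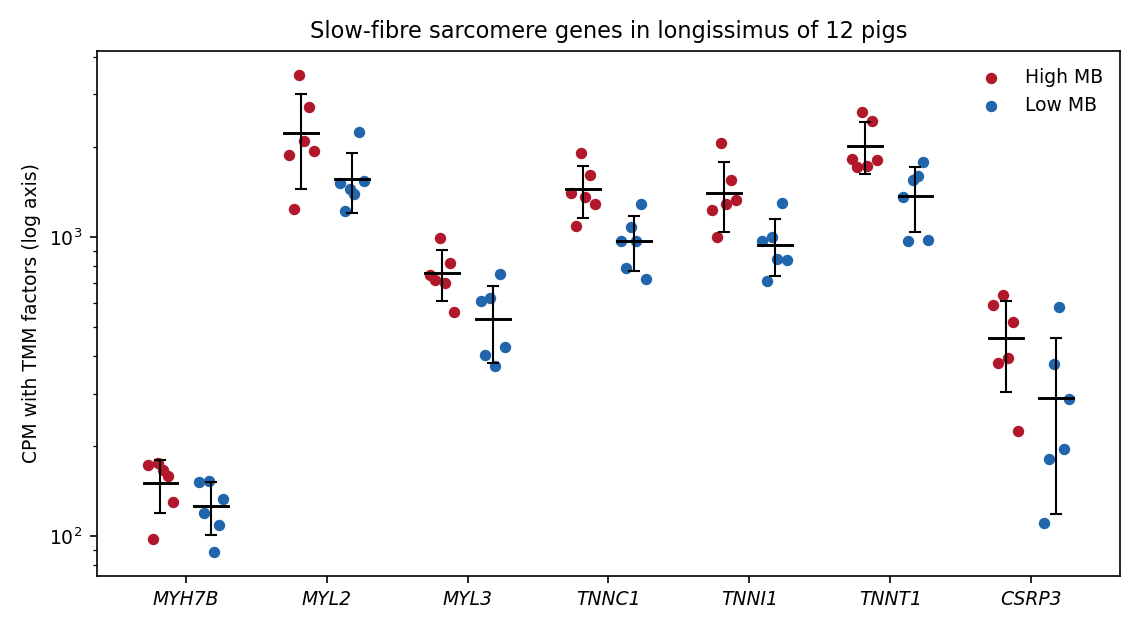
Level of each of the 7 slow-fibre sarcomere genes in the 12 pigs, as CPM with TMM factors on a log axis; points are pigs, red for High MB and blue for Low MB, long bars are group means and whiskers the SD (n = 6 each). The High MB mean lies above the Low MB mean for all 7 genes, and the points of the groups overlap for every gene.

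The slow troponin subunits gave the smallest p-values. TNNC1 (ENSSSCG00000011441, chromosome 13, 34591571 to 34594320, minus strand) had a lowest, median and highest level of 1093, 1385 and 1916 CPM in the High MB group and of 724, 970 and 1288 CPM in the Low MB group. Of the 6 High MB pigs, 4 lay above every Low MB pig, and only Low MB pig 5 reached into the High MB range. The means were 1447 ± 286 and 970 ± 203 CPM (SD, n = 6 each). The log2 fold change was 0.58 ± 0.17 (SE), with an unadjusted p of 0.00373 and an adjusted p of 0.563 in edgeR, and DESeq2 gave an adjusted p of 0.148. An exact two-sided permutation test of its log2 CPM gave p = 0.00649, where 0.00216 is the smallest p that 6 pigs against 6 allow.

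TNNI1 (ENSSSCG00000024061, chromosome 10, 23788279 to 23800554, minus strand) ran from 997 through a median of 1305 to 2062 CPM in the High MB group and from 711 through 908 to 1298 CPM in the Low MB group. Low MB pig 5 was again the highest of its group, above 3 of the 6 High MB pigs. The log2 fold change was 0.58 ± 0.18 (SE; edgeR unadjusted p 0.00702, adjusted p 0.563), and the exact permutation p was 0.0173.

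TNNT1 (ENSSSCG00000025353, chromosome 6, 59351445 to 59365584, minus strand) ran from 1715 through 1814 to 2622 CPM in the High MB group and from 973 through 1456 to 1780 CPM in the Low MB group. A single Low MB pig, again pig 5, lay inside the High MB range. The log2 fold change was 0.56 ± 0.18 (SE; edgeR unadjusted p 0.00833, adjusted p 0.563), and the exact permutation p was 0.00649. In the deep and the standard libraries apart, the log2 fold change was 0.45 and 0.68 for TNNC1, 0.37 and 0.79 for TNNI1, and 0.40 and 0.65 for TNNT1.

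The separation of the groups depended on the scaling. The TMM factor was highest in High MB pig 2 (1.21), which lowers its CPM, and lowest in Low MB pig 5 (0.891), which raises its CPM. With TMM factors no member separated them completely (31 of 13373 genes did with every High MB pig above, 0.232%). With CPM by library size alone, TNNC1, TNNI1 and TNNT1 did, 3 of the 7 members, where 56 of all genes did (0.419%). On that scale the High MB pigs had 1310 to 1850 CPM of TNNC1 and the Low MB pigs 723 to 1147 CPM.

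The light chains of slow myosin had larger unadjusted p-values in edgeR than the slow troponin subunits. Neither passed the adjusted limit, and no test compared light chains with troponins. MYL2 (ENSSSCG00000039710, chromosome 14, 32205953 to 32213848, minus strand) was the most abundant member in CPM, at 1238, 2014 and 3488 CPM (lowest, median, highest) in the High MB group and 1223, 1480 and 2238 CPM in the Low MB group. The ranges overlapped widely, because High MB pig 2 lay near the bottom and Low MB pig 5 near the top of the 12. Its log2 fold change of 0.51 ± 0.22 (SE; edgeR unadjusted p 0.0355, adjusted p 0.570; exact permutation p 0.0758) was 0.34 without High MB pig 3 (unadjusted p 0.114) and 0.23 within the deep libraries, against 0.80 within the standard ones. The gene model of MYL2 overlaps that of CCDC63 on the other strand, and the strand setting of the counting is not given in the sources used here.

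MYL3 (ENSSSCG00000011325, chromosome 13, 29730271 to 29735616, minus strand), whose promoter held both the MCAT and the CArG box, stood at 560, 733 and 995 CPM in the High MB group and 371, 520 and 751 CPM in the Low MB group. The lower 3 Low MB pigs lay below every High MB pig. The log2 fold change was 0.51 ± 0.19 (SE; edgeR unadjusted p 0.0168, adjusted p 0.563), the exact permutation p was 0.0325, and the difference was 0.12 in deep and 0.82 in standard libraries, the widest gap between library classes among the members.

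MYH7B and CSRP3 did not reach an unadjusted p of 0.05. MYH7B (ENSSSCG00000007288, chromosome 17, 38362158 to 38385680, plus strand) measured 98.0, 162 and 176 CPM in the High MB group and 88.8, 127 and 154 CPM in the Low MB group, with a log2 fold change of 0.25 ± 0.17 (SE; edgeR unadjusted p 0.150, adjusted p 0.677; exact permutation p 0.199). High MB pig 2 was the low value of its group, and without that pig the log2 fold change was 0.37 (unadjusted p 0.0169). TRPC4AP, whose gene overlaps MYH7B on the other strand, was at 115 ± 7.59 and 120 ± 8.60 CPM (SD, n = 6 each). Whether the genes share exon sequence, where counting without strand could not tell their reads apart, was not tested.

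CSRP3 (ENSSSCG00000013354, chromosome 2, 40219288 to 40240614, plus strand) had the largest difference and the largest error of the members. It spanned 225, 458 and 639 CPM in the High MB group and 111, 243 and 585 CPM in the Low MB group, so that the groups overlapped over most of their range. The log2 fold change was 0.66 ± 0.35 (SE; edgeR unadjusted p 0.0785, adjusted p 0.608; exact permutation p 0.0779). It was 1.01 without Low MB pig 4 (unadjusted p 0.00633) and 1.06 without High MB pig 2 and Low MB pig 4 (unadjusted p 0.00588). Low MB pig 4 had the highest CSRP3 of its group and the lowest MYL3 and MYH7B of all 12 pigs.

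Levels between genes were compared per kilobase of RefSeq coding length. MYL2 was highest at 4441 ± 1553 CPM per kb in the High MB group and 3108 ± 702 in the Low MB group, followed by TNNC1 at 2977 ± 587 and 1996 ± 417, TNNI1 at 2497 ± 650 and 1673 ± 360, TNNT1 at 2254 ± 448 and 1531 ± 375, MYL3 at 1283 ± 244 and 900 ± 257, CSRP3 at 789 ± 266 and 499 ± 295, and MYH7B at 25.5 ± 5.14 and 21.4 ± 4.31 (SD, n = 6 each). The order of neighbours held within every pig for 4 of the 6 neighbouring pairs. TNNI1 exceeded TNNT1 in 10 of 12 pigs and MYL3 exceeded CSRP3 in 11 of 12. Per kilobase of the longest transcript, TNNC1 came before MYL2 (2431 and 2349 CPM per kb over all pigs), because the TNNC1 transcript model is barely longer than its coding part. MYL3 also came before TNNT1 on that scale (876 and 863 CPM per kb). The heavy chain MYH7B stood far under the other members on both scales.

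**Figure D2:**
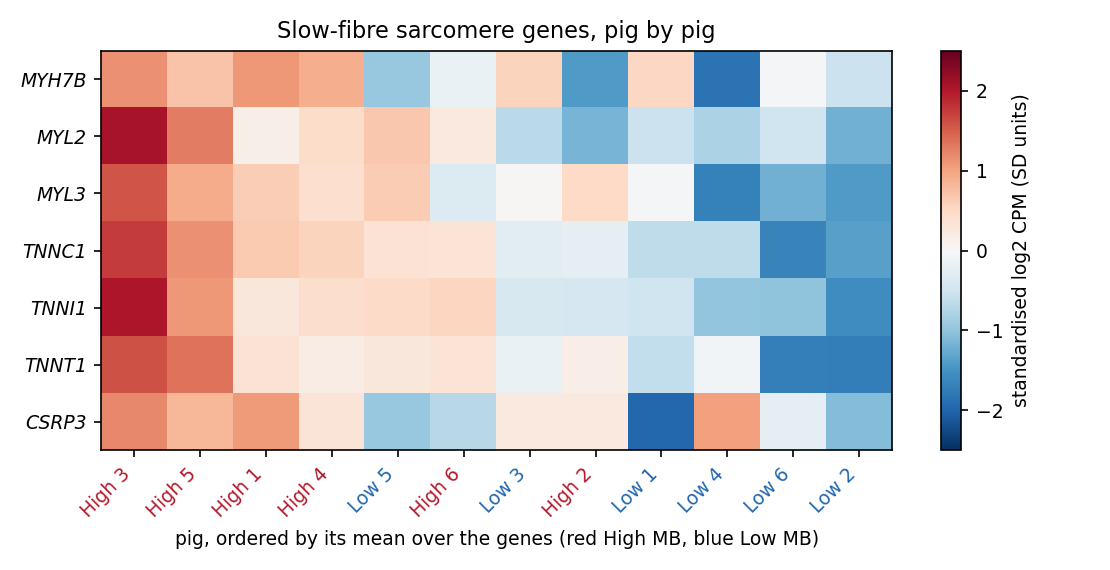
Standardised log2 CPM (colour, in SD units over the 12 pigs) of the 7 members in rows and the pigs in columns, ordered from the highest to the lowest mean. High MB pigs 3, 5, 1 and 4 fill the first 4 columns, and Low MB pigs 6 and 2 the last.

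The members also differed between pigs of 1 group. High MB pig 3 had the highest level of all 12 pigs in 7 of 7 members. High MB pigs 1, 3, 4 and 5 were above the median of the 12 in 7 of 7, High MB pig 6 in 4 and High MB pig 2 in 2. In the Low MB group, pig 5 was above it in 5 of 7 members, pigs 1, 3 and 4 in 1 each, and pigs 2 and 6 in 0. Summed over the 7 members, slow isoforms took 0.741% to 1.15% of all gene counts in the High MB group (mean 0.867 ± 0.170%, SD, n = 6) and 0.449% to 0.682% in the Low MB group (mean 0.558 ± 0.0861%). These shares use the library totals as they are and do not overlap. By library size alone, 56 of 13373 single genes also had every High MB pig above every Low MB pig (0.419%). On that scale 1105 genes were higher and 86 lower at an edgeR unadjusted p under 0.05. With TMM factors the summed level did overlap, at 6242 to 11898 CPM against 4401 to 7660 CPM, with High MB pig 2 below Low MB pig 5.

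Across the 12 pigs, pairwise correlations of log2 CPM among the 21 pairs of members ranged from 0.17 to 0.96 with a median of 0.58, and TNNT1 and TNNC1 were the closest pair. Against the mean of the other members, r was 0.96 for TNNC1, 0.95 for TNNI1, 0.88 for TNNT1, 0.86 for MYL2, 0.83 for MYL3, 0.51 for MYH7B and 0.44 for CSRP3. Troponins and light chains thus varied together and MYH7B and CSRP3 less so. These values are descriptions over 12 pigs that share the group difference and the library scaling.

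The fast isoforms gave no difference past an unadjusted p of 0.05. Of 11 fast counterparts, 7 had a row, all 7 had a lower mean in the High MB group, and none had an unadjusted p under 0.05, with a median log2 fold change of -0.10. TPM1, a tropomyosin of fast fibres and the one of lowest p, stood at 8774 ± 2164 and 10433 ± 1827 CPM (SD, n = 6 each; log2 fold change -0.25, unadjusted p 0.222 in edgeR). MYL1, the fast essential light chain, was at 9625 ± 2035 and 11045 ± 2075 CPM (log2 fold change -0.20, unadjusted p 0.297). TNNC2, the fast troponin C, was at 8209 ± 1865 and 8913 ± 1219 CPM (log2 fold change -0.12, unadjusted p 0.511). Leaving out High MB pig 2, which had low fast-isoform levels, turned the small differences of TNNT3, TNNI2, TNNC2, MYOZ1 and MYOZ3 positive.

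**Figure D3:**
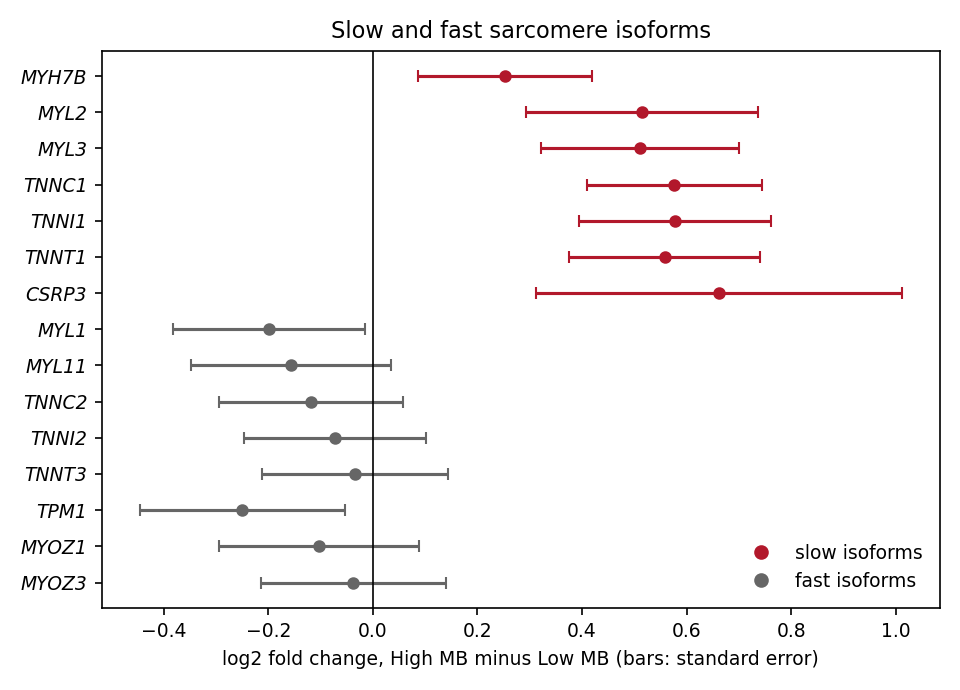
Log2 fold change (High MB minus Low MB) with its standard error from the edgeR fit, for the 7 slow members in red and for 8 fast isoforms in grey (MYL11 is the current symbol of the fast regulatory light chain MYLPF and was added after its values were seen). All slow isoforms lie right of 0 and all fast isoforms left of it, with no adjusted p under 0.10.

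The slow to fast ratio within a pig needs no scaling between libraries. For TNNI1 over TNNI2 there were 17.4, 22.0 and 34.0 slow reads per 100 fast reads in the High MB group (lowest, median, highest) and 11.5, 14.7 and 16.9 in the Low MB group. This was the only one of 5 pairs in which the groups did not overlap. For TNNC1 over TNNC2 the values were 12.3, 18.7 and 24.0 against 8.92, 11.0 and 12.9, and for TNNT1 over TNNT3 15.4, 22.1 and 30.8 against 10.3, 13.9 and 18.8. Both light chains gave the same direction. MYL2 over MYL11 had 16.4, 22.4 and 36.1 slow reads per 100 fast reads against 12.7, 16.0 and 18.3, and MYL3 over MYL1 had 4.62, 8.06 and 12.2 against 3.67, 4.67 and 6.82. The highest ratios of TNNT1/TNNT3 (30.8) and MYL3/MYL1 (12.2) were those of High MB pig 2. That pig had the lowest TNNT3 (5575 CPM) and MYL1 (5910 CPM) of all pigs, which raises its ratios. The mean log2 ratio was higher in the High MB group by 0.63 (TNNT1/TNNT3) to 0.75 (MYL3/MYL1), given without a test. Within the deep libraries these differences were 0.28 to 0.39, and within the standard libraries 0.71 to 0.97. Gene models of TNNC2 and MYL1 are marked partial in RefSeq, and whether any reads were shared between the genes of a pair was not tested.

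**Figure D4:**
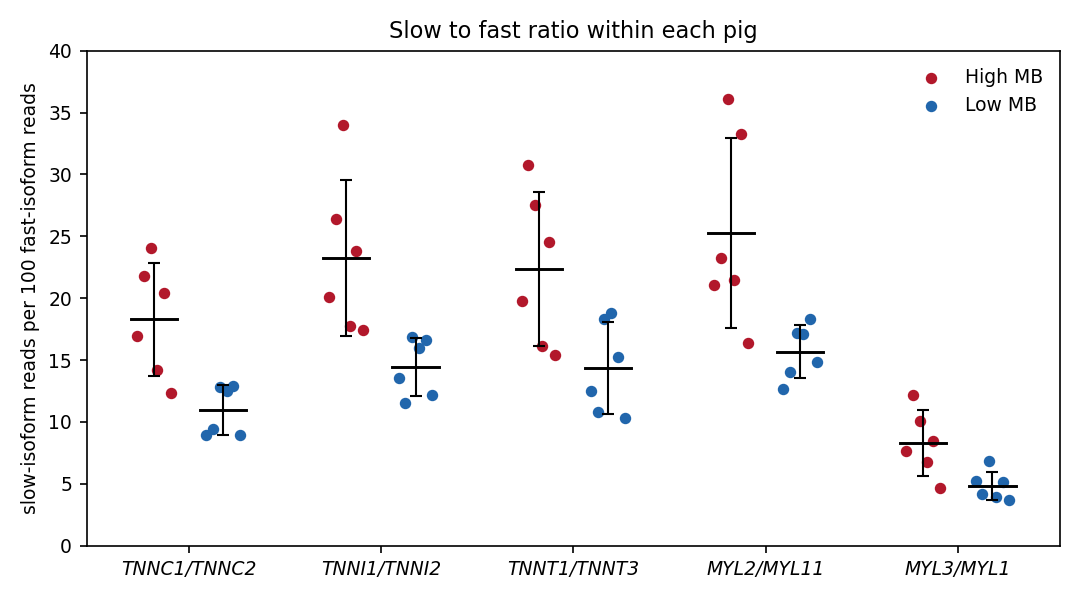
Slow-isoform reads per 100 fast-isoform reads within each of the 12 pigs for 5 paralog pairs (linear axis; red High MB, blue Low MB; long bars are means and whiskers the SD, n = 6 each). Only for TNNI1/TNNI2 do the points of the groups not overlap.

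Other genes of the slow programme went in both directions. Of 15 listed genes linked to slow or stressed muscle, 10 were tested, 5 were higher in mean and 0 had an unadjusted p under 0.05, with a median of 0.05. ATP2A2, the slow calcium pump of the sarcoplasmic reticulum, was at 1077 ± 261 and 850 ± 348 CPM (SD, n = 6 each; log2 fold change 0.34, unadjusted p 0.249 in edgeR). SMYD1, a methyltransferase of striated muscle and the gene of lowest p in the list, was at 173 ± 44.8 and 203 ± 40.3 CPM (log2 fold change -0.23, unadjusted p 0.248). The most abundant per kilobase, SLN, an inhibitor of the calcium pump, and CA3, the carbonic anhydrase of slow fibres, had log2 fold changes of -0.06 (unadjusted p 0.719) and -0.03 (unadjusted p 0.901). The largest positive difference of the list was that of ANKRD2, a stretch-responsive gene of slow muscle named after its values were seen, at 447 ± 230 and 305 ± 250 CPM (log2 fold change 0.55, unadjusted p 0.255), a size within the range of the members with a larger error. Among 24 tested regulators of fibre type, 5 were higher in mean and 1 had an unadjusted p under 0.05, with a median of -0.14. That gene was MEF2D, a transcription factor of muscle, at 157 to 185 CPM in the High MB group and 187 to 212 CPM in the Low MB group, without overlap (26 of 13373 genes, 0.194%, lay wholly lower in the High MB group). Its log2 fold change was -0.27 ± 0.09 (SE; edgeR unadjusted p 0.00692, adjusted p 0.563). SOX6, a repressor of slow-fibre genes, was at 40.5 ± 14.4 and 58.2 ± 20.1 CPM (log2 fold change -0.52, unadjusted p 0.0807). The most abundant regulators per kilobase, ESRRA and MYOG, had log2 fold changes of 0.00 and -0.08 (unadjusted p 0.980 and 0.714).

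Sarcomere genes outside the slow and fast pairs gave no difference past an unadjusted p of 0.05. Of 12 tested (actin, nebulin, actinins and others), 4 were higher in mean and 0 had an unadjusted p under 0.05, with a median log2 fold change of -0.17. ACTN3, the actinin of fast fibres, had the lowest p (log2 fold change -0.35, unadjusted p 0.0953 in edgeR), followed by LMOD2 (-0.32, unadjusted p 0.149), and the abundant ACTA1 and DES had -0.24 (unadjusted p 0.358) and 0.00 (unadjusted p 0.984). Of 5 tested developmental and cardiac isoforms, 2 were higher, and 1 of them, cardiac troponin T TNNT2, had an unadjusted p under 0.05 at a very low level (1.38 ± 0.79 and 0.48 ± 0.26 CPM, SD, n = 6 each; unadjusted p 0.0109 in edgeR). Cardiac actin ACTC1 varied widely, at 53.1 ± 60.7 and 106 ± 238 CPM (unadjusted p 0.418). The row that carries the symbol MYH6, the name of the cardiac alpha heavy chain, was at 5670 ± 1526 and 4571 ± 759 CPM (log2 fold change 0.31, unadjusted p 0.119). In RefSeq the gene next to MYH7 on chromosome 7 (75650841 to 75672908, plus strand) is LOC100736765. The sequences of these genes were not compared, and which gene the reads of that row came from was not tested.

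The genes whose pattern was most like the mean of the members were ranked by Pearson's r of log2 CPM over the 12 pigs among 11347 genes with a symbol. The closest were GPX4 (r = 0.92), a selenoenzyme that reduces lipid peroxides, ABHD11 (0.91), the MYH6 row (0.90), CRHR2 (0.89), B3GALT1 (0.87), COX4I1 (0.86), a subunit of mitochondrial cytochrome oxidase, LRRN1 (0.85), ZNF672 (0.84), ETHE1 (0.84), a mitochondrial sulfur dioxygenase, and PSMB10 (0.83). Within groups, with each group's mean removed, r was 0.94 for the MYH6 row and 0.90 for ETHE1, the highest of these. At the other end stood COP1 (-0.90), CTDSPL (-0.89), KHDRBS1 (-0.89), TBC1D23 (-0.88) and DNAAF10 (-0.88). These genes were picked from the top and bottom of the ranking, and the values are given with no test.

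Because the groups were chosen for myoglobin, the relation of each member to measured myoglobin content was computed within each group of 6 pigs only. Of 14 relations (7 genes in 2 groups), 0 had an exact permutation p under 0.05, by Pearson's r or by Spearman's rho, and r was positive in 6 of 7 members in each group. Without the 2 pigs farthest from the median content, r was positive in 4 of 7 members in the High MB group (-0.22 to 0.21) and in 3 of 7 in the Low MB group (-0.48 to 0.65). The smallest p belonged to TNNT1 in the Low MB group, with r = 0.75 (exact permutation p = 0.0986, adjusted p over the 14 relations = 0.984) and rho = 0.60 (exact permutation p = 0.242, adjusted p = 0.99), and r was 0.65 without those 2 pigs. The transcript of the myoglobin gene MB was not analysed here.

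**Figure D5:**
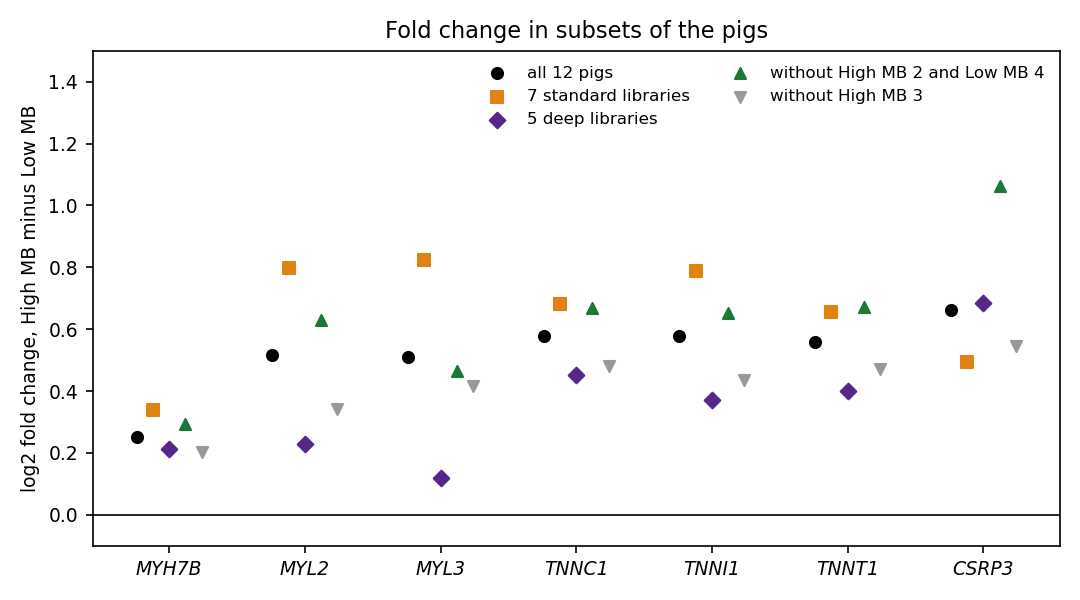
Log2 fold change (High MB minus Low MB) of each member in all 12 pigs, in the 7 standard or the 5 deep libraries, without High MB pig 2 and Low MB pig 4, and without High MB pig 3. Every value lies above 0, from 0.12 (MYL3, deep libraries) to 1.06 (CSRP3, without the pair).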

How the data were processed

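RNA-seq libraries of longissimus dorsi from 12 Iberian pigs, 6 per group, were analysed, with 1 pig per library. Per the labels, reads went through Trim Galore and HISAT2 (build Sscrofa11.1), and the authors deposited raw HTSeq counts per gene, without normalization. The annotation release and the strand and overlap settings are not given in the sources used here. Counts assigned to genes were 38914271 to 91318334 per pig. Rows that name no gene held 56.0% to 57.2% of the column totals and were left out. The 12 transcript tables were not used.

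Members and gene lists were chosen with earlier results of these data known. Gene counts were fitted in R 4.3.3 with edgeR 4.0.16 (TMM factors, filterByExpr with at least 10 counts, quasi-likelihood test, no covariate) over 13373 genes, with Benjamini-Hochberg adjustment. A gene was called where the adjusted p was under 0.10 and the log2 fold change beyond 0.58 in either direction. DESeq2 1.42.0 was the alternative tool. CPM are counts scaled to library size with TMM factors, log2 CPM used a prior count of 2, and single values were tested by exact two-sided permutation over 924 splits. Tested on simulated data of this comparison (13260 genes), edgeR recovered 26.5% of genes with a true log2 fold change of 0.6, 68.0% at 1 and 98.0% at 2. Recovered here means past both limits of a call, the adjusted p and the log2 fold change. Named genes were all members, the 2 genes of each list with the highest CPM per kb of transcript and the 2 with the lowest p, and the 10 most and 5 least like the members. CNN1 and LMOD1 were added as the smooth muscle markers that were lower in mean. The planned measures of MYH7 (its share of myosin heavy chain, its relation to myoglobin) and of the MB transcript were not run, and the mean of the 7 members stood in for MYH7 in the ranking by likeness. Individual numbers in the labels did not pair pigs of the groups: deviations of same-numbered pigs correlated at -0.21 to 0.14. Positions, coding lengths and promoters came from RefSeq for Sscrofa11.1, and 1 promoter is not reported here.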

Additional observations from a re-analysis of the deposited data

Results flagged for a closer look

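MYL2, the slow regulatory light chain, was the only member with a pig far from its group. On the log2 CPM scale, Low MB pig 5 lay above the other 5 pigs of its group by a gap that took 0.6255 of the whole range of the group, which is past Dixon's 95% limit for 6 samples. In all, 24 groups of values were examined in this way, and chance places about 5% of such groups past the limit. Low MB pig 5 had 2238 CPM of MYL2, and its library was one of the deep ones. Without that pig the log2 fold change of MYL2 was 0.65 (edgeR, unadjusted p 0.0113).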

How the results depend on the processing

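The 7 members kept a positive log2 fold change under all 25 alternatives to the reported fit, from 0.12 to 1.06, and none was called under any of them. The count with unadjusted p under 0.05, 5 as reported, was 0 in the deep libraries alone, where 5 pigs were tested, and 4 to 6 when single pigs were left out. No share over all genes is given beside the counts without single pigs. DESeq2 called 29 genes of the whole table and the deep libraries alone 1, where 0 were called as reported. Within the deep libraries the slow to fast log2 ratio difference was 0.28 for MYL3/MYL1, 0.33 for TNNI1/TNNI2 and 0.39 for TNNC1/TNNC2, against 0.75, 0.66 and 0.72 as reported; the cause was not tested. With the individual number as a replicate block the count of members under 0.05 stayed at 5 and TNNC1 had a log2 fold change of 0.58, but same-numbered pigs did not pair (1 of 6 correlations over 0.1, and 0 of 6 pigs closest to their own number). Library size without TMM factors, the analyses without the 2 pigs that stood apart, the ratio alternatives and the use of MYL11 for MYLPF were chosen after seeing the data. The alternatives planned for the MYH7 share, the MB transcript and the transcripts were not run. On simulated counts of this comparison, 26.5% of genes with a true log2 fold change of 0.6 passed both limits of a call. The median estimate of those genes was 0.56, under the limit of 0.58. The share therefore reflects the size limit as well as the adjusted p, and does not measure how often differences like the members' are detected.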
